A study of Mus musculus with 6 samples.

Results

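Ephrins, Eph receptors, Slits, Robo receptors, netrins and netrin receptors were compared between pRb-deficient and pRb-expressing mouse osteoblasts. The set was a list of 31 gene symbols, and each gene was read from the probe set with that symbol alone and the highest mean signal over the 6 arrays, a probe set being a group of short probes for 1 transcript. Of the 31 genes, 30 had such a probe set among the 18193 genes of the array, and 28 of them were above a signal of 32, taken as the floor near background, on at least 1 array. Ephb2 was not analysed here, and Epha3 and Robo2 were at or below 32 on every array and were not tested.

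The pRb-deficient group was 3 cultures labelled Rb Knockout and the pRb-expressing group 3 cultures labelled Wild type, with 1 Affymetrix Mouse Genome array each. Both were MC3T3 osteoblasts, made from skull-vault bone of mouse embryos at day 18.5 and carried through 3T3 passaging until they grew without limit. The labels name flox19-RB1 mice on a C57BL/6 background crossed to 2.3- and 3.6-Col1a1-Cre mice, whose Cre is driven by a promoter of the collagen I gene of bone cells, and the study's text adds that the control cultures came from littermates. Neither says which Cre line, if any, each group carried, or whether the 3 cultures of a group came from separate animals or lines, so the p-values below describe spread among these 6 cultures alone, and part of that spread may be technical. The effect of pRb status cannot be told apart from that of the line a culture came from.

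Eph receptors are receptor tyrosine kinases that bind ephrins on the surface of a neighboring cell. A-type ephrins are held in the membrane by a lipid anchor and B-type ephrins span it, and signals can run into both the receptor-bearing and the ephrin-bearing cell, often leading to repulsion or to the sorting of cells at a boundary. Slits and netrins are secreted proteins first known as guidance cues for axons, which act through Robo receptors and through Dcc and Unc5 receptors. In bone, ephrin-B2 and EphB4 take part in the exchange between osteoclasts and osteoblasts, and in humans mutations of the genes for ephrin-B1 and ephrin-A4 are linked to early fusion of skull sutures.

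Among the arrays as a whole, Rb1 was 123.5 to 143.1 in pRb-deficient and 1105.9 to 1123.7 in pRb-expressing cultures, as MAS5 signals on a linear scale. Of 12 osteoblast markers listed, 9 were measured, of which 8 were lower and 1, Phex, was higher in pRb-deficient cultures. Among all genes tested 23.4% were lower and 18.5% higher. Col1a1, the main collagen gene of bone, stayed between 8615.5 and 13387.9 in pRb-deficient cultures, against 16759.1 to 20551.0 in pRb-expressing cultures, while Ibsp and Dmp1, matrix genes of mature osteoblasts and osteocytes, were at or below 32 on all 3 pRb-deficient arrays. Xist was 9658.4 to 12296.3 in pRb-deficient and 159.7 to 176.3 in pRb-expressing cultures.

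pRb-deficient osteoblasts had higher signals for 5 of the 28 tested genes (Efna1, Efnb2, Epha2, Slit3 and Ntn4), lower signals for 11 (Efna3, Efna4, Efna5, Efnb1, Epha4, Ephb3, Ephb4, Slit2, Robo4, Ntn1 and Unc5b), and 12 had no call at limma's adjusted p threshold of 0.05. Over all 16308 genes tested, 41.9% passed, 18.5% as higher and 23.4% as lower, so the 16 altered genes stand against a background in which changes were common. A change of at least 2-fold was found for 11 of the 28 genes and for 15.6% of all genes tested. The median log2 fold change, pRb-deficient over pRb-expressing, was −0.45 for the 28 genes and −0.09 for all genes, and the median of its absolute value was 0.58 and 0.39. In 6 genes the 3 pRb-deficient values all lay above the 3 pRb-expressing values and in 11 they all lay below, whereas the groups did not overlap for 53.8% of all genes. Of 13 ligand genes 4 were higher and 6 lower, and of 15 tested receptor genes 1 was higher and 5 were lower. Several closely related genes moved in opposite directions, as given in turn below for Efna1 and Efna3, Efnb1 and Efnb2, Slit2 and Slit3, and Ntn1 and Ntn4. Of these, Efna3 and Ntn1 were each lower by 1 of their 2 probe sets, and Ntn1 kept neither its sign nor its call once chromosome medians were removed. In that alternative, each gene's log2 signals were taken relative to the gene's mean over all arrays. The median of these relative values over a chromosome's genes that averaged a signal of 200 or more was then subtracted, array by array, from that chromosome's probe sets.

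**Figure D1:**
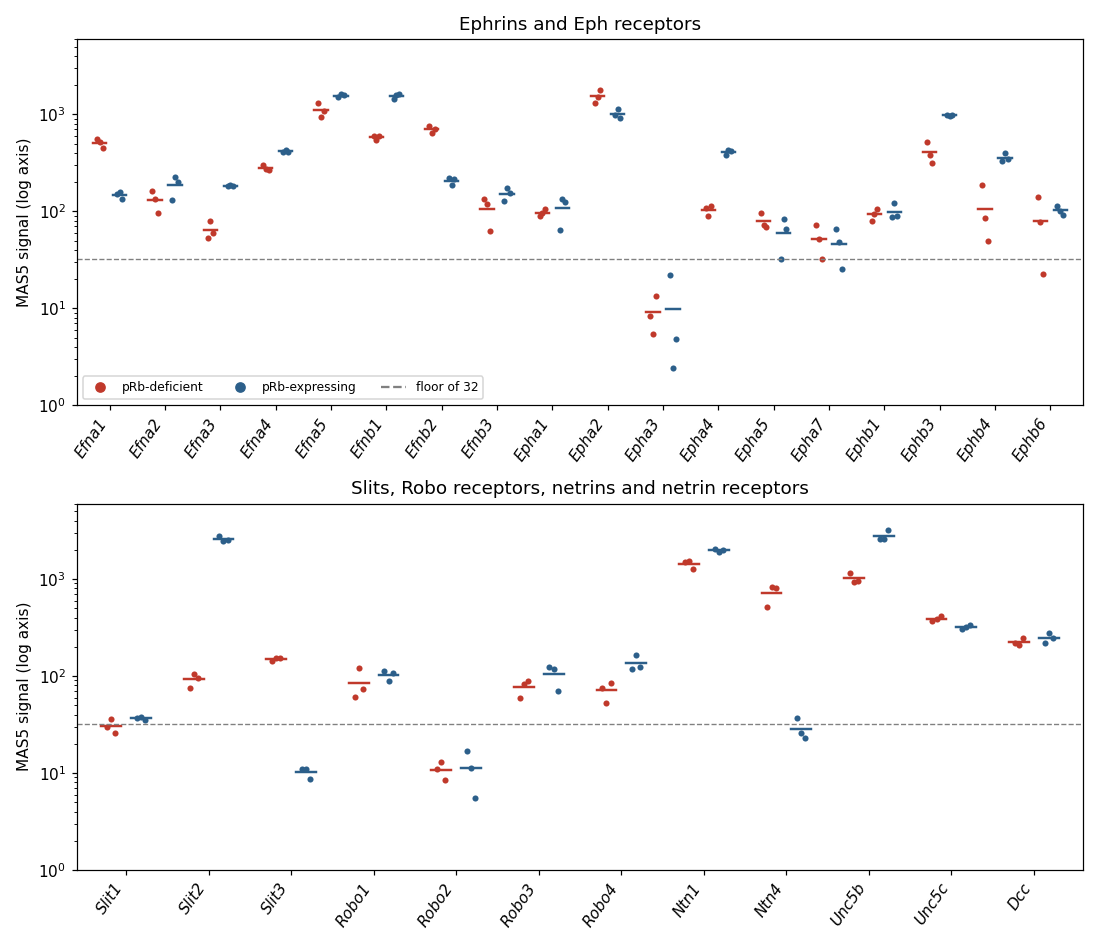
MAS5 signal (log axis) of 30 genes, 1 point per culture and a bar at each group's mean (n = 3 cultures), pRb-deficient left of pRb-expressing, and the floor of 32 dashed. Slit2 fell to a mean of 92.3 in pRb-deficient cultures, against 2584.5 in pRb-expressing cultures, while Slit3 and Ntn4 were near or below the floor in pRb-expressing cultures only.

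Among the A-type ephrins, Efna1 was higher and Efna3, Efna4 and Efna5 were lower in pRb-deficient cultures. Efna1 encodes ephrin-A1, a preferred ligand of EphA2, and its signal was 558.9, 522.6 and 445.3 in pRb-deficient cultures and 150.2, 156.8 and 135.6 in pRb-expressing cultures. The groups were far apart, with a 3.44-fold rise on geometric means (log2 fold change 1.78, standard error 0.14, adjusted p = 1.29e-04). Efna3 was 52.8, 80.4 and 60.5 in pRb-deficient cultures, against 184.3, 189.1 and 180.6 in pRb-expressing cultures, a 2.90-fold fall (adjusted p = 0.00148). This call rested on 1 probe set, since a second one of Efna3 overlapped between the groups (log2 fold change −0.06, adjusted p = 0.936), and the mean of both did not pass (adjusted p = 0.0839). Efna4, which was also lower, had 299.2, 276.0 and 269.6 in pRb-deficient and 411.4, 432.5 and 410.7 in pRb-expressing cultures, a 1.49-fold fall (adjusted p = 0.00521). Efna5, a ligand of EphA receptors in the developing brain, was 1309.7, 939.6 and 1094.5 in pRb-deficient and 1521.1, 1602.2 and 1568.1 in pRb-expressing cultures (1.42-fold lower, log2 fold change −0.50, adjusted p = 0.0172). Its groups did not overlap, but the call was lost without pRb-deficient replicate 3 (adjusted p = 0.0608), without pRb-expressing replicate 1, 2 or 3 (0.0691, 0.0902 and 0.0735), and with chromosome medians removed (log2 fold change −0.26, adjusted p = 0.136). A second probe set of Efna5 was lower without overlap but did not pass (log2 fold change −0.68, adjusted p = 0.0765). Efna2 overlapped between the groups, at 96.2 to 163.2 in pRb-deficient and 132.2 to 226.3 in pRb-expressing cultures (log2 fold change −0.51, 95% confidence interval −1.19 to 0.18). Its second probe set also overlapped and had the opposite sign (log2 fold change 1.22, adjusted p = 0.247).

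Efna1, Efna3 and Efna4 are adjacent protein-coding genes on chromosome 3, in this order. The gene before Efna1, Slc50a1, a sugar transporter, had a log2 fold change of −0.07 (adjusted p = 0.682), and the gene after Efna4, Adam15, a membrane-bound metalloprotease, was lower (−0.52, adjusted p = 0.0358). By the brightest probe sets, opposite changes thus lay next to each other within this cluster, Efna1 being higher and Efna3 lower. The second probe set of Efna3 did not show the fall, as given above.

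Of the 3 B-type ephrins, Efnb1 and Efnb2 changed, in opposite directions. Efnb1, which encodes ephrin-B1, was 604.5, 541.3 and 593.6 in pRb-deficient cultures and 1450.9, 1597.0 and 1611.6 in pRb-expressing cultures, 2.68-fold lower (log2 fold change −1.42, standard error 0.08, adjusted p = 3.64e-05). All 3 of its probe sets fell, with log2 fold changes between −1.48 and −1.29. Efnb1 lies on the X chromosome, where the median log2 fold change of 523 genes was 0.02. Xist, on the same chromosome, separated the groups on every array, as given above. The part of sex-linked expression in this fall was not tested and cannot be told apart from that of pRb status. Efnb2, which encodes ephrin-B2, was 766.2, 638.5 and 708.8 in pRb-deficient cultures, against 218.3, 184.8 and 217.5 in pRb-expressing cultures, 3.41-fold higher (log2 fold change 1.77, standard error 0.12, adjusted p = 7.88e-05). Each of its 4 probe sets rose, by log2 fold changes between 0.66 and 2.43. Efnb3, known mainly from the nervous system, was 134.4, 119.0 and 62.2 in pRb-deficient and 128.5, 174.4 and 153.7 in pRb-expressing cultures, which overlapped (log2 fold change −0.60, 95% confidence interval −1.36 to 0.17).

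The 250 bases before the annotated start of Efnb1 and Efnb2 are shown because these relatives moved apart. They are from RefSeq (GRCm38.p6), 5′ to 3′ on the gene's strand, at chrX:99135811-99136060 on the plus strand for Efnb1 and chr8:8661243-8661492 on the minus strand for Efnb2. Capitals mark matches to the motifs searched below, a TEAD motif and a TATA motif read on the opposite strand in Efnb2 and none in Efnb1.
Efnb1: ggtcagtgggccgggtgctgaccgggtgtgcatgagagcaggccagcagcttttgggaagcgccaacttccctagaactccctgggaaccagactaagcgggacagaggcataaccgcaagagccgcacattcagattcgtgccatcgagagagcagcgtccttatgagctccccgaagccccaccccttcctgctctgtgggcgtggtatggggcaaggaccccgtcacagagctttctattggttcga
Efnb2: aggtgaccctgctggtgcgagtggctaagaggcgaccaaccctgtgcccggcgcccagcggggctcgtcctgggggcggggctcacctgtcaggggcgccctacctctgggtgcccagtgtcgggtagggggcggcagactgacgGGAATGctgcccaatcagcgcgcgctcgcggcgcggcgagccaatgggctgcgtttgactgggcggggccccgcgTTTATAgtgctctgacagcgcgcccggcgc

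Of the EphA receptors, Epha2 was higher and Epha4 lower. Epha2, a receptor of ephrin-A1, was 1313.8, 1513.4 and 1764.5 in pRb-deficient cultures and 980.7, 1125.8 and 912.4 in pRb-expressing cultures. Its groups did not overlap and the rise was 1.52-fold (log2 fold change 0.60, standard error 0.13, adjusted p = 0.0107), but it no longer passed without pRb-deficient replicate 2 (adjusted p = 0.0552) or pRb-expressing replicate 1 or 3 (0.0621 and 0.0577). Epha4, which binds ephrins of both types, was 109.1, 89.1 and 113.6 in pRb-deficient cultures, against 379.7, 431.7 and 421.7 in pRb-expressing cultures, 3.97-fold lower (log2 fold change −1.99, adjusted p = 1.36e-04). On 3 further probe sets of Epha4 the pRb-deficient signals fell to or near the floor, with 15.3, 38.6 and 27.6 on the next brightest against 482.8, 387.2 and 314.8 in pRb-expressing cultures, at least 11.4-fold lower. A dim, further probe set did not pass (log2 fold change −0.03). Epha1, Epha5 and Epha7 were dim, with signals between 25.3 and 133.3 on all arrays, and overlapped between the groups, with 95% confidence intervals of the fold that reached from 0.572 to 1.57 for Epha1, from 0.762 to 2.53 for Epha5 and from 0.580 to 1.95 for Epha7.

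Of the EphB receptors, Ephb3 and Ephb4 were lower in pRb-deficient cultures. Ephb3 was 524.4, 378.1 and 317.5 in pRb-deficient and 996.3, 951.7 and 977.9 in pRb-expressing cultures, a 2.45-fold fall (log2 fold change −1.29, standard error 0.18, adjusted p = 0.00143). Ephb4, a receptor of ephrin-B2, was 186.5, 85.3 and 49.0 in pRb-deficient cultures and 329.3, 397.2 and 347.5 in pRb-expressing cultures. The pRb-deficient values were widely spread, all of them below the pRb-expressing ones (3.88-fold lower, log2 fold change −1.96, adjusted p = 0.0141), and the standard error of 0.45 was the largest of the 16 altered genes. The fall of Ephb4 did not pass without pRb-deficient replicate 2 (adjusted p = 0.0751), without pRb-expressing replicate 1, 2 or 3 (0.0703, 0.0932 and 0.0693), or when all dim probe sets were kept in the fit (0.0557). Ephb6, a member of the family without kinase activity, was 139.8, 78.2 and 22.5 in pRb-deficient cultures, on both sides of the 114.5, 101.2 and 91.8 of pRb-expressing cultures. Ephb1 had nearly the same range in both groups, 80.0 to 106.4 in pRb-deficient and 86.8 to 121.8 in pRb-expressing cultures (95% confidence interval of the fold 0.657 to 1.37). Epha2 was thus the 1 Eph receptor of 9 tested that was higher, and 3 were lower. Over all genes tested, 18.5% were higher and 23.4% lower, and 9 genes are too few to set these counts apart from those shares.

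Slit2 had the log2 fold change farthest from 0 of the 28 genes, that of Ntn4, the next, being a lower bound. Its signal was 75.6, 105.9 and 95.4 in pRb-deficient cultures and 2763.6, 2463.1 and 2526.9 in pRb-expressing cultures, 28.2-fold lower (log2 fold change −4.82, standard error 0.14, adjusted p = 2.98e-06). The further 2 probe sets of Slit2 passed as well, at least 5.27-fold and at least 3.75-fold lower, each with pRb-deficient values at or near the floor. Slit3, a close relative that shares the Robo receptors, was 141.7, 154.4 and 153.1 in pRb-deficient cultures, against 11.1, 11.0 and 8.6 in pRb-expressing cultures. All 3 pRb-expressing values were below the floor, so Slit3 was at least 4.68-fold higher (adjusted p = 7.93e-05). It has 1 probe set. Slit1, a Slit of the nervous system, stayed near the floor, at 26.1 to 36.4 in pRb-deficient and 35.5 to 38.1 in pRb-expressing cultures, and did not pass (adjusted p = 0.412).

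The 250 bases before the annotated starts of Slit2 and Slit3 are shown for the same reason, at chr5:47982905-47983154 and chr11:35121206-35121455 of GRCm38.p6, both on the plus strand. A TATA motif, in capitals, begins 28 bases before the start of Slit2, and Slit3 holds no match.
Slit2: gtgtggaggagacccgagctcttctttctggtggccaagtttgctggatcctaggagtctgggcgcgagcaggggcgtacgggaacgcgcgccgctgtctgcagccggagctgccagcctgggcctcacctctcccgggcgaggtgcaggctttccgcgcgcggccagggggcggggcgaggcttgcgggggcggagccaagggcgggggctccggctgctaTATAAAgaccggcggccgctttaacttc
Slit3: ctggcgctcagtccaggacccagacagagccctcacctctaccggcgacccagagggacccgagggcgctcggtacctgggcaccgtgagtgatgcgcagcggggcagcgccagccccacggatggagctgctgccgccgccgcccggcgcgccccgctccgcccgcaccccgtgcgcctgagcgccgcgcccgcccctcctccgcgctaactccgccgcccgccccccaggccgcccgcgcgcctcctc

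Motifs were searched on both strands in these windows for the 27 of 31 genes that RefSeq's promoter table holds, 32 windows in all. The E2F motif, searched as TTTCGCGC, TTTGGCGC, TTTCCCGC and TTTGCCGC, was in none of them and in 1.86% of 32851 windows of the same length over all genes. The AP-1 motif TGANTCA was also in none (6.75% of all windows). The RUNX motif TGTGGT was in 1 window each of 4 genes, Efna3, Efna4, Ephb1 and Unc5c (14% of all windows), Efna3 having 2 windows. The TEAD motif GGAATG was in 1 window each of 4 genes, Efnb2, Epha1, Epha2 and Epha3 (12.6% of all windows). The TATA motif TATAAA was in the windows of Slit2 and Efnb2 (12.4% of all windows), and these motifs shared no bases with each other in the sequences shown. At a share as small as 1.86%, 32 windows are too few for the lack of an E2F match to set them apart. The windows of these genes also held a median of 17 CG pairs, against 6 in all windows, so the shares over all windows come from sequences of unlike base content. A match describes letters only, and the windows say nothing about binding.

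Of the Robo receptors, Robo4 was lower by its brightest probe set, and further probe sets of Robo1 and Robo3 were lower as well. Robo4, known from endothelial cells, was 76.0, 52.5 and 85.2 in pRb-deficient and 119.3, 166.4 and 122.6 in pRb-expressing cultures, a 1.93-fold fall between dim signals (log2 fold change −0.95, standard error 0.26, adjusted p = 0.0271). The groups did not overlap, but when 1 array was left out Robo4 passed only without pRb-deficient replicate 3, its adjusted p without any other array being 0.0623 to 0.0949, and it did not pass with all dim probe sets kept in the fit (0.0573). Robo1, a widely expressed Slit receptor, depended on the probe set. The brightest was 60.5, 120.5 and 73.4 in pRb-deficient and 112.2, 88.6 and 106.1 in pRb-expressing cultures, which overlapped (log2 fold change −0.33, adjusted p = 0.446). The next brightest was 8.1, 5.7 and 5.7 in pRb-deficient cultures, against 114.8, 129.5 and 145.1 in pRb-expressing cultures, at least 4.04-fold lower (adjusted p = 1.52e-04), and the remaining one overlapped (log2 fold change −0.13). Robo3, a receptor of commissural axons, was 59.6 to 89.1 in pRb-deficient and 70.6 to 124.8 in pRb-expressing cultures on its brightest probe set (log2 fold change −0.42, adjusted p = 0.332), while a dimmer one fell to 27.8, 14.9 and 15.7 in pRb-deficient cultures, against 51.8, 47.9 and 70.0 in pRb-expressing cultures (at least 1.74-fold, adjusted p = 0.0101). Robo2 had signals of 8.5 to 13.1 in pRb-deficient and 5.5 to 17.0 in pRb-expressing cultures, all below the floor.

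Both netrin genes changed, Ntn4 rising and Ntn1 falling slightly, the fall of Ntn1 being lost with chromosome medians removed. Ntn4 encodes netrin-4, which binds laminins of basement membranes, and its signal was 519.2, 825.9 and 810.5 in pRb-deficient cultures, against 36.9, 25.7 and 23.0 in pRb-expressing cultures. Since 2 of the 3 pRb-expressing values were below the floor, the rise was at least 21.0-fold (log2 fold change 4.39, standard error 0.23, adjusted p = 2.49e-05), and a second probe set, at 172.0 to 206.1 in pRb-deficient and 4.0 to 5.9 in pRb-expressing cultures, passed too. Ntn1 encodes netrin-1, the ligand of Dcc and Unc5 receptors, and remained bright in both groups, at 1499.2, 1527.8 and 1264.6 in pRb-deficient and 2045.7, 1904.7 and 1989.0 in pRb-expressing cultures (1.39-fold lower, log2 fold change −0.47, adjusted p = 0.00599). Ntn1 lies on chromosome 11, whose median log2 fold change was −0.39 over all genes tested and −0.52 over genes that averaged 200 or more. With chromosome medians removed array by array, over genes of the second kind, the log2 fold change of Ntn1 was 0.06 (adjusted p = 0.643). Its own value of −0.47 lay between these medians, so that the sign left depends on which genes set the median. Its second probe set did not pass (log2 fold change −0.33, adjusted p = 0.294).

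Of the netrin receptors, Unc5b was lower. Unc5b, also known as a receptor of endothelial cells, was 1153.3, 926.9 and 958.5 in pRb-deficient and 2598.0, 2594.5 and 3176.9 in pRb-expressing cultures, 2.75-fold lower (log2 fold change −1.46, standard error 0.12, adjusted p = 1.44e-04), and its second probe set was 2.37-fold lower (adjusted p = 5.91e-05). Unc5c was 370.6, 389.1 and 413.0 in pRb-deficient cultures, all above the 304.1, 318.2 and 334.5 of pRb-expressing cultures, but the difference was small (1.23-fold, 95% confidence interval 1.03 to 1.46) and did not pass (adjusted p = 0.0738). The dimmer probe set of Unc5c did pass as higher (1.88-fold, adjusted p = 0.0133). Dcc was 207.7 to 248.5 in pRb-deficient and 219.6 to 275.4 in pRb-expressing cultures, with a 95% confidence interval of the fold of 0.715 to 1.18, and its other 2 probe sets were below the floor on all arrays.

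**Figure D2:**
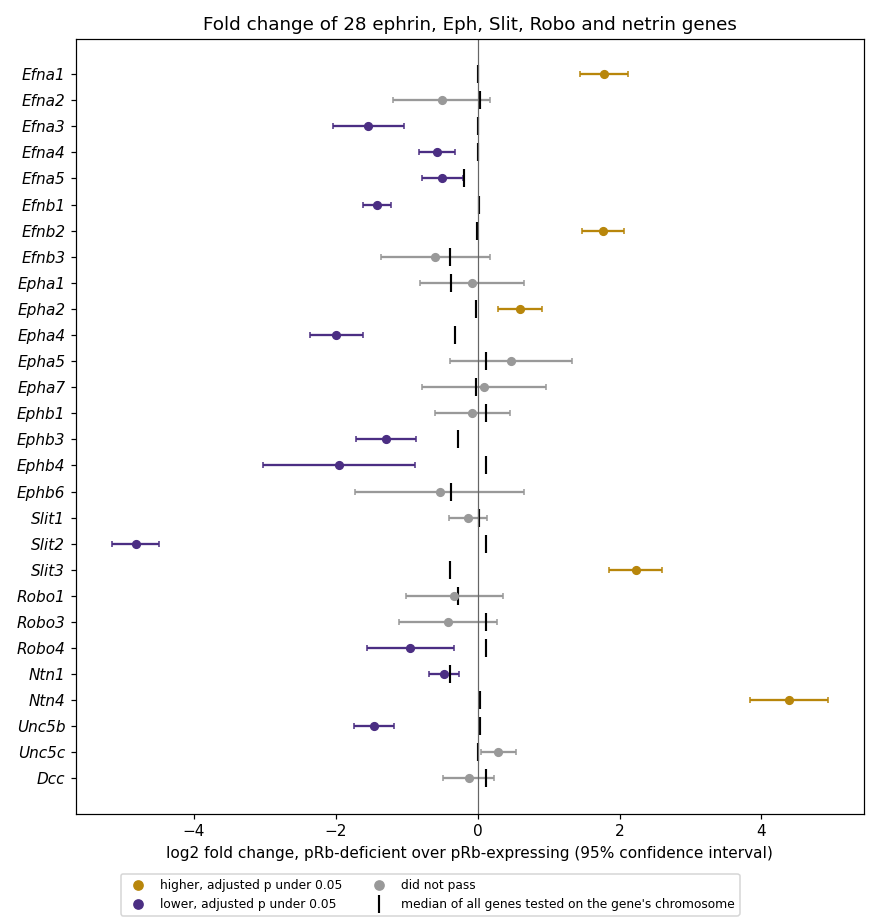
Log2 fold change (x axis, pRb-deficient over pRb-expressing) with its 95% confidence interval for the 28 genes tested, and the median of all genes tested on the same chromosome as a vertical tick. Slit2 at −4.82 and Ntn4 at 4.39 lie farthest from 0, the value of Ntn4 being a lower bound, and no tick lies beyond −0.39 or 0.13.

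Over all 53 tested probe sets of these genes, 11 were higher and 21 lower, against 16.2% and 18.8% of all 38427 probe sets tested, and 12 lay wholly above and 23 wholly below the pRb-expressing values, against groups without overlap in 48% of all probe sets. Further probe sets mostly went the way of the brightest. For the 5 genes that were higher, 3 had further probe sets, and all 5 of these were higher too. For the 11 genes that were lower, 7 had further probe sets above the floor, of which 8 were lower, 4 did not pass and 0 were higher. Among the 12 genes with no call on the brightest probe set, 8 further probe sets were tested, and 1 was higher (Unc5c) and 2 were lower (Robo1 and Robo3). Probe sets of 1 gene read the same RNA on the same arrays and are not replicates.

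**Figure D3:**
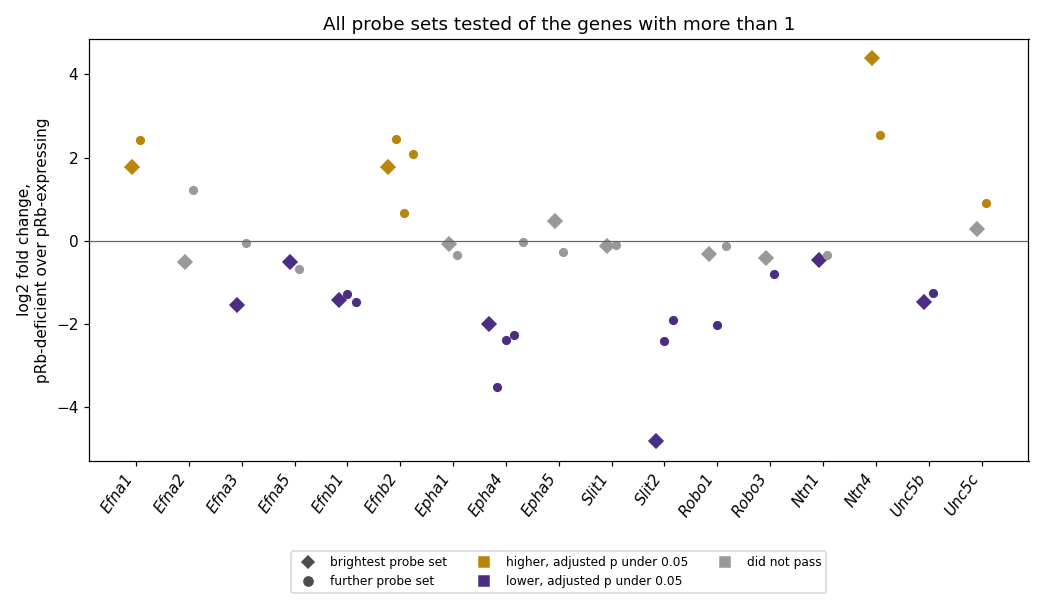
Log2 fold change (y axis, pRb-deficient over pRb-expressing) of each probe set tested for the genes with more than 1, the brightest as a diamond and others as circles, colored by whether limma's adjusted p passed 0.05 and in which direction. All 4 probe sets of Efnb2 lie above 0 and all 3 of Efnb1 and of Slit2 below it, while the second of Robo1, at −2.01, lies far below its brightest, at −0.33.

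Whole chromosomes differed between the groups in median fold change, and the 28 genes lie on 14 chromosomes. Of the 11 lower genes, 4 lie on chromosomes with a median log2 fold change under −0.15 over all genes tested (Epha4 on chromosome 1, Ephb3 on 16, Efna5 on 17 and Ntn1 on 11). Lower genes were common there, at 38.7%, 38.7%, 29.9% and 43.7% of the genes tested on these chromosomes in turn, against 23.4% of all genes tested. Slit3 was higher although it also lies on chromosome 11. Over genes that averaged 200 or more, the kind used for removal, the median log2 fold change was −0.50 on chromosome 1, −0.43 on 16, −0.26 on 17 and −0.52 on 11. With chromosome medians removed, Epha4 (log2 fold change −1.49) and Ephb3 (−0.86) still passed, as did all 5 higher genes, and 9 in place of 11 genes were lower, Efna5 and Ntn1 being the exceptions. Slit2 and Ephb4, on chromosome 5 with a median of 0.26 over the same kind of genes, had log2 fold changes of −5.08 and −2.22 under this setting.

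Other genes of these pathways, mostly effectors inside the cell with some further ligands, receptors and surface proteins, changed in both directions. The lists held 89 genes, and among the 83 tested 23 rose, 25 fell and 35 had no call (median log2 fold change −0.01), against 18.5% higher, 23.4% lower and 41.9% altered in all over all genes tested, the background for each list below as well. Of 29 effectors of Eph receptors and ephrins, 9 were higher and 8 lower. Tiam1, an exchange factor for Rac, was at least 26.1-fold higher (adjusted p = 3.74e-06), and Rasa1, a GTPase-activating protein for Ras, had a log2 fold change of 1.13 (adjusted p = 2.77e-04). Grb10, an adaptor and imprinted growth inhibitor, averaged 97.3 ± 14.5 in pRb-deficient and 9381 ± 183 in pRb-expressing cultures (SD, n = 3 each, log2 fold change −6.60, adjusted p = 8.79e-07), and Itsn1, which encodes an endocytic scaffold with an exchange factor domain for Cdc42, had a log2 fold change of −0.89 (adjusted p = 3.23e-04).

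Of 16 effectors of Slit and Robo signaling, 8 fell, 3 rose and 5 had no call. Gpc1, the heparan sulfate proteoglycan glypican-1, which binds Slits, had a log2 fold change of −1.17 (adjusted p = 8.52e-05), Srgap2, a GTPase-activating protein of Robo signaling, −0.98 (adjusted p = 7.96e-04) and the actin regulator Vasp −0.64 (adjusted p = 0.00138), whereas the tyrosine kinase gene Abl2 rose by 0.65 (adjusted p = 0.00168). Of 20 tested netrin receptors and effectors outside the set, 5 were higher and 4 lower. Trio, an exchange factor for Rac, had a log2 fold change of 1.38 (adjusted p = 1.27e-05), and Appl1, an adaptor of Dcc, rose by 0.59 (adjusted p = 0.00132), while the actin-binding gene Ablim1 (−1.10, adjusted p = 4.02e-04) and Dock1, an exchange factor for Rac (−0.48, adjusted p = 0.00278), fell. Neo1, the receptor most like Dcc, averaged 2073 ± 299 in pRb-deficient and 1610.1 ± 161 in pRb-expressing cultures (SD, n = 3 each) and did not pass (adjusted p = 0.0611). Of the Eph receptors outside the set, Epha6 was tested and did not pass (adjusted p = 0.224), and Epha8 and Epha10 were at or below 32 on all arrays.

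**Figure D4:**
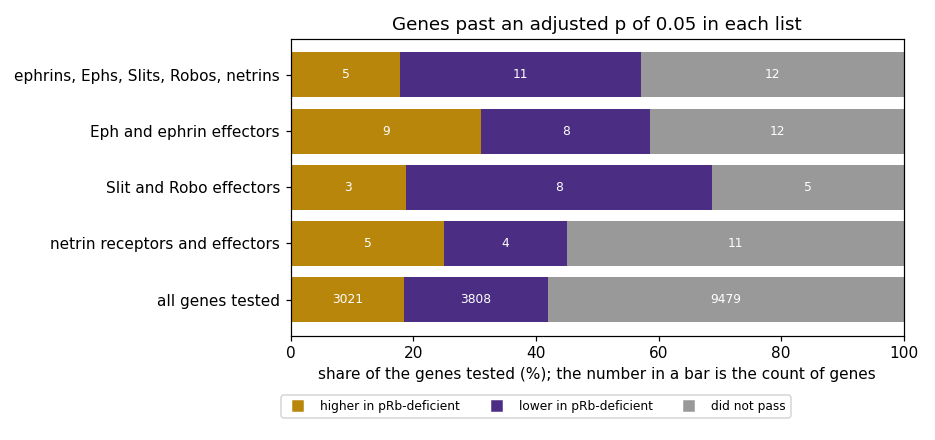
Share of tested genes (x axis, %) called higher or lower in pRb-deficient cultures, or not called (limma, adjusted p of 0.05), with the count of genes in each bar, for the 28 genes described here, 3 lists of other pathway genes and all genes tested. The 28 genes and the effectors of Slit and Robo signaling have more lower than higher genes, as do all genes tested (23.4% lower, 18.5% higher), and the other 2 lists have slightly more higher than lower ones.

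Markers of other cell types that carry these ligands and receptors were measured on the same arrays, and fewer cells of a type and less RNA per cell cannot be told apart in such cultures. Of 12 endothelial markers, which bear on Efnb2, Ephb4, Robo4 and Unc5b, 9 were tested, 1 was higher (Egfl7), 1 lower (Flt1) and 7 had no call. The summed signal of the 12 was 1018 to 1076 in pRb-deficient and 1306 to 1383 in pRb-expressing cultures. Flt1 alone was 131.4 to 173.2 in pRb-deficient and 505.1 to 567.4 in pRb-expressing cultures, so the sum does not describe the list as a whole. Tie1, Vwf and Erg were at or below 32 on all arrays, and Pecam1 exceeded it on 1 pRb-deficient array (47.7). Kdr, Cdh5, Esam, Cldn5, Egfl7 and Flt1 were above 32 on all 6 arrays, Kdr at 228.4 to 316.5 in pRb-deficient and 219.1 to 328.6 in pRb-expressing cultures and Cdh5 at 50.6 to 77.7 in pRb-deficient and 65.2 to 96.6 in pRb-expressing cultures. Of 7 tested neuronal markers, which bear on Slit1, Robo3 and Dcc, 1 was higher (Gap43), 1 lower (Tubb3) and 5 had no call. Sums were 851 to 1004 in pRb-deficient and 652 to 819 in pRb-expressing cultures, of which Gap43 alone made up 317.3 to 550.9 and 12.2 to 35.0. Snap25 was at or below 32 on all arrays, whereas Syt1 (102.1 to 148.4 in pRb-deficient and 116.5 to 142.3 in pRb-expressing cultures), Rbfox3 (94.1 to 131.1 in pRb-deficient and 107.6 to 154.5 in pRb-expressing cultures) and Tubb3 were above it on all 6. Of 6 glial markers listed, 4 were measured, of which 2 were lower (S100b and Sox10) and 2 had no call (Gfap and Erbb3). Sums were 324 to 400.3 in pRb-deficient and 2002 to 2217 in pRb-expressing cultures, of which S100b alone made up 17.6 to 36.9 and 1445.6 to 1759.9. Of 8 hematopoietic markers 2 were higher (Cd14 and Cd68), 1 lower (Lyz2) and 5 had no call. Sums were 1963 to 2470 in pRb-deficient and 2850.1 to 3084 in pRb-expressing cultures, of which Lyz2 alone made up 62.5 to 149.2 and 1559.9 to 1703.6. Of 7 tested smooth muscle and pericyte markers 4 were higher (Cnn1, Cspg4, Tagln and Mcam) and 3 had no call (Acta2, Rgs5 and Des). For Acta2 and Rgs5 all pRb-deficient values lay below all pRb-expressing ones, without passing. Sums were 29076 to 34617 in pRb-deficient and 23672 to 26252 in pRb-expressing cultures. Acta2 alone made up 15206.1 to 17741.0 and 18083.8 to 20447.4 of them, and so went against the sum. Myh11 was at or below 32 on all arrays. Among all genes tested, 18.5% were higher and 23.4% lower, the background for each marker list. The part of these marker differences in the results was not tested.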

How the data were processed

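RNA of 3 pRb-deficient and 3 pRb-expressing cultures was biotin-labeled and hybridized by the authors, with 1 array each. The authors deposited linear MAS5 intensities, which they had scaled to a trimmed mean of 500. Expression Console 1.1 (Affymetrix) and MAS5 are named in the submitters' processing notes. With 2% trimmed at each end, each array's mean was 500.00, and median signals were 108.0 to 119.9. The table holds no detection calls, and the number of arrays limits the precision.

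Of 45101 probe sets, 64 controls and 6610 at or below 32 on all arrays were left out, and 38427 were tested. Signals under 32 were set to 32 and log2 values entered limma 3.58.1 (R 4.3.3) with group as the only term, using lmFit and eBayes with trend set to true. Two-sided p-values received Benjamini-Hochberg adjustment across every probe set tested. A fold against values at or below 32 is a lower bound ("at least"). The methods name a rank statistic, used with permutations and a limit on the false discovery rate, which was not repeated here. For 1 probe set the smallest two-sided exact p of a rank test with 3 against 3 cultures is 0.10. Complete separation of groups was therefore counted beside the limma test. Probe sets were named by the array's annotation table (34945 with 1 symbol, 932 with several, 9160 with none), and RefSeq (GRCm38.p6) gave chromosomes and gene order, the study naming no build. The genes, lists and tests were chosen with earlier results of these data known. The genes named are the 31 of the set, up to 4 of each effector list by the lowest adjusted p, markers and Rb1, and Neo1, the 3 Eph receptors outside the set, Xist and the neighbors of Efna1 and Efna4 were added after values had been seen. Of the 5 lists behind the pathway totals, the genes of 1 are not reported here. The steps were tested on simulated data, and the alternatives tried are given with their effect further on.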

Additional observations from a re-analysis of the deposited data

How the results depend on the processing

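With 3 cultures per group, probe sets near the floor of 32 give only lower bounds, and a small change can miss the threshold. The counts of 5 higher and 11 lower genes held with a floor of 100 or none, with 32 added to each signal, and with quantile normalization, median centring and no intensity trend. Over the whole array, median centring shifted the middle log2 fold change by 0.06 and quantile normalization by 0.03. For the 16 altered genes, 202 of 217 values under settings that kept all arrays stayed on the same side of the threshold in the same direction, 14 no longer passed and 1, Ntn1, changed sign, at 0.063 with chromosome medians removed. Leaving out 1 array at a time, 80 of 96 values still passed, with 4 to 6 genes higher and 8 to 10 lower. The cause of these shifts was not tested, except that fewer arrays or probe sets enter some of the settings.

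When a change beyond 1.5-fold was tested, 6 of the 28 genes were lower, 8 other pathway genes were higher and 5 lower, and 3989 in place of 13433 probe sets passed over the whole array. With the second brightest probe set in place of the brightest, 6 of 17 tested genes were lower, and 11 of 63 other pathway genes. With chromosome medians removed 16 in place of 25 other pathway genes were lower, and without 1 array 14 to 22.

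Every other change of sign was in a gene with no call. As log2 fold changes, with chromosome medians removed Epha1 was 0.50, Ephb6 0.038 and Robo1 0.11. Array quality weights gave Epha1 0.0054 and Robo1 0.12, and a floor of 100 gave Ephb6 0.090 and Robo1 0.0058. The second brightest probe set gave Epha5 −0.28 and Efna2 1.22, and the mean of probe sets gave Efna2 0.35. Leaving out 1 array at a time, Epha1 ranged between −0.41 and 0.11, Epha7 between −0.19 and 0.40, Ephb1 between −0.18 and 0.079 and Ephb6 between −1.03 and 0.035. Some values of the 12 genes with no call came to pass with their sign kept, 8 of 153 with all arrays kept and 1 of 72 with 1 array left out. Among them, with the mean of probe sets, Robo1 (limma adjusted p = 0.0145) and Robo3 (0.0101) passed as lower.

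Replicate numbers are shared between the groups, but same-numbered cultures did not deviate together (correlations of 0.02, −0.03 and 0.06), so they were not treated as pairs. With the replicate number as a block (replicate block), 5 genes were higher and 10 lower, Robo4 having an adjusted p of 0.0643.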
